A study of Mus musculus with 12 samples.

Results

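The genes of synaptic vesicle release and recycling described here are 32 listed symbols, whose products dock, fuse and retrieve the vesicles that carry neurotransmitter. Members were the probe sets that the platform annotation assigns to a single one of these symbols. Of the 32 symbols, 30 had such a probe set, 59 probe sets in all out of 22626 that are not controls, and the whole series covered 12393 genes. Sv2b and Rims1 had none and were not analysed here. The cerebellum of 12 BALB/c Npc1 mice was profiled on 12 Affymetrix arrays, with 3 animals in each of 4 groups: Npc1-/- (null) at postnatal day 49 (P49), Npc1+/+ (wild type) at P49, null at P21 and wild type at P21. Npc1 moves cholesterol out of late endosomes and lysosomes, and its loss causes Niemann-Pick type C disease. Each array holds the RNA of 1 animal, and the labels give all animals standard chow and name no drug. The labels do not name the Npc1 allele, and 1 protocol text gives P21 for every animal whereas the time point labels give both ages.

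As background, a vesicle fuses when its SNARE protein (synaptobrevin, of the Vamp genes) zips together with syntaxin (Stx1a) and SNAP-25 (Snap25) of the plasma membrane. Synaptotagmins and complexins tie this step to calcium, Rab3 proteins and their effectors hold vesicles near the release site, and the ATPase NSF with the SNAP adaptors takes spent SNARE complexes apart. Clathrin, its adaptors and dynamin then retrieve the membrane. In the cerebellum this machinery serves the terminals of granule cells, climbing and mossy fibres, interneurons and Purkinje cells, and transcripts measured in whole cerebellum come mainly from cell bodies that lie within it.

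Values are log2(intensity + 16) after quantile normalization, and a gene stands for its probe set of highest mean. All 30 members with a probe set passed the filter on dim genes, which left 7835 genes for the test. The dimmest member was Rab3b with a mean of 10.21, close to the filter at 9.93. The markers of cerebellar neurons were present: 11 of 14 Purkinje cell genes and 7 of 10 granule neuron genes had a probe set and all of these passed the filter. Npc1 was 8.25 to 10.53 on the 6 null arrays and 11.06 to 11.75 on the 6 wild-type arrays. Xist, transcribed from the inactive X chromosome, was below 15 on 3 arrays labelled female (null P21 replicates 2 and 3 and wild-type P21 replicate 2) and between 15.61 and 15.86 on the other arrays, including null P49 replicate 1, which is labelled male. On those 3, in that order, Xist was 13.01, 13.36 and 9.28 and the Y-linked gene Eif2s3y 9.25, 12.67 and 12.72, so they are not alike. Eif2s3y, whose mean is below the filter, was 4.35 to 8.91 on the other arrays. The sex labels of these arrays are therefore in doubt, and values without the first 3 stand beside the results they touch.

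At P49 no vesicle gene passed the test between null and wild-type cerebellum. Across the 30 members the differences, null minus wild type, ran from log2 -0.50 to 0.42 with a median of -0.07, against a median of -0.02 over all genes tested. In limma 0 of 30 members had an adjusted p at or below 0.05, beside 2.65% of all genes tested, and 0 of 30 had an unadjusted p under 0.05, beside 887 of 7835 genes. For 23 of the 30 members the 95% interval of the difference lay within 0.5 on the log2 scale (1.41-fold) in either direction, and for 29 it lay within 1 (2-fold). Rab3b was the exception to the wider bound, with an interval of -1.19 to 0.19. The differences were negative for 22 of 30 members, and without null P49 replicate 1 for 17 of 30, with a median of -0.02. With the probe sets of each gene averaged, 19 of 30 were negative, with a median of -0.04. Of 24 further probe sets 13 had the sign of the brightest probe set of their gene. Over the P49 arrays 11 of 11 Purkinje cell markers fell and 10 of 10 tested microglial markers rose. The summed Purkinje list was 18.35 to 18.92 in null and 19.41 to 19.45 in wild type, and the summed microglial list was 17.47 to 17.82 in null and 14.84 to 14.97 in wild type. The part of these cells in the member values was not tested, and in whole tissue fewer cells of a type and less RNA per cell cannot be told apart.

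**Figure D1:**
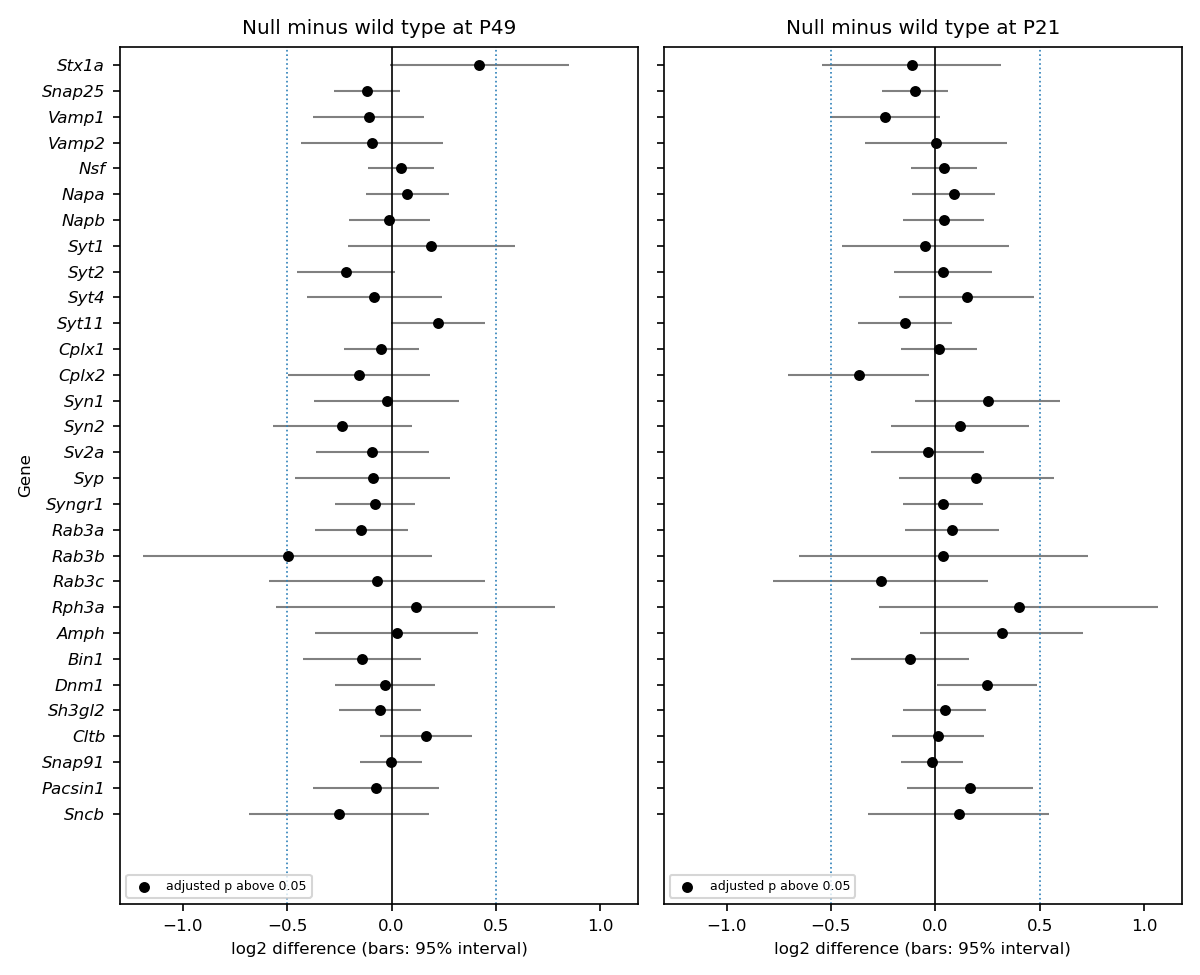
log2 difference, null minus wild type, for the 30 members (rows) at P49 (left) and P21 (right), from limma with n = 3 arrays a group. Points are estimates, bars 95% intervals and dotted lines mark 0.5 in either direction; all points are black, since no member had an adjusted p at or below 0.05, and Rab3b and Rph3a have the widest intervals.

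Of the 4 SNARE genes 3 gave differences of -0.12 to -0.10 at P49, and Stx1a a positive one. Snap25 was 17.18, 17.16 and 17.03 in null P49 arrays and 17.21, 17.28 and 17.24 in wild-type P49 arrays, so all 3 null arrays lay below all 3 wild-type arrays by a narrow margin. Its difference was -0.12 ± 0.07 (SE, n = 3 each; limma adjusted p = 0.631). Vamp2, the main vesicle SNARE of forebrain terminals, was 15.30 ± 0.02 in null P49 and 15.39 ± 0.05 in wild-type P49 arrays (SD, n = 3 each), and Vamp1, its counterpart in hindbrain and motor neurons, was 14.35 ± 0.22 and 14.46 ± 0.07. Stx1a had the smallest p of the members at P49. It was 10.28, 10.58 and 10.38 in null P49 arrays and 10.23, 9.52 and 10.23 in wild-type P49 arrays. The groups did not overlap, but wild-type replicate 2 lay well below the other wild-type arrays. The difference of 0.42 ± 0.20 did not pass in limma (adjusted p = 0.453) and was 0.18 without that array.

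The upstream sequence of Stx1a, the only member called in any comparison by its brightest probe set (with age), is shown beside that of its SNARE partner Vamp1, which was not called. Each line gives the 250 bases before the RefSeq transcription start on GRCm38.p6, on the plus strand, at chr5:135023232-135023481 for Stx1a and chr6:125215331-125215580 for Vamp1, 5′ to 3′. Capitals mark the GC box GGGCGG, which was searched on both strands.
Stx1a: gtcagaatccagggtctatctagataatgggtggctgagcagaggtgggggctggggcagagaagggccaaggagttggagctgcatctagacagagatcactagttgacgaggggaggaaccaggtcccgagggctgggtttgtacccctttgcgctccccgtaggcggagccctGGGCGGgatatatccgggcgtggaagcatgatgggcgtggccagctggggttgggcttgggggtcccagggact
Vamp1: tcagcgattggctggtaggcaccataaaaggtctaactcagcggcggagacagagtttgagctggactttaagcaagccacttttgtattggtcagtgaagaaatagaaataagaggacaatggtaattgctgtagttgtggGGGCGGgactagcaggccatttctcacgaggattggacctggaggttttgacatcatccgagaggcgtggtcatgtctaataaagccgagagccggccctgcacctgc
Both windows held 1 such motif, which is a description of these letters and not of a bound site. A promoter sequence was matched for 28 of the 32 symbols, with 37 starts in all, and 59.5% of the 250-base windows before these starts held GGGCGG on either strand, beside 32.7% of 32851 promoters. Rims1 and Sv2b, which had no probe set, are among these 28. The cyclic AMP response element TGACGTCA was found in 3 of the 37 windows (8.11%, those of Cltb, Sh3gl2 and Syn1), beside 1.55% of all promoters. The E-box CACGTG was in 8.11% of the 37 windows and 6.02% of all, and TATAAA in 8.11% and 12.4%, with windows of Sv2b among both.

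None of the 3 genes that disassemble the SNARE complex passed between genotypes. Nsf, the ATPase, was 15.93 ± 0.11 in null P49 and 15.89 ± 0.05 in wild-type P49 arrays (SD, n = 3 each). Its adaptors Napa (alpha-SNAP) and Napb (beta-SNAP) differed by 0.07 and -0.01, with 95% intervals inside 0.5 on the log2 scale for all 3 genes. The further probe sets of Napb gave 0.03 to 0.14 at P49. Between genotypes at P21 the differences of these 3 genes were 0.04 to 0.09. Every further probe set of these 3 genes went the other way at P21. That of Napa gave -0.12 and those of Napb gave -0.14 to -0.06. That of Nsf was 14.19, 14.19 and 14.44 in null and 14.60, 14.52 and 14.62 in wild-type P21 arrays. On this Nsf probe set all 3 null arrays were below all 3 wild-type arrays, by a difference of -0.31 ± 0.12 that did not pass (limma adjusted p = 0.476).

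Among the calcium sensors, Syt1 and Syt2, the fast triggers of release, leaned in opposite directions at P49 without passing. Syt2 was 13.87, 13.91 and 13.83 in null P49 arrays and 14.11, 14.08 and 14.08 in wild-type P49 arrays, so the groups did not overlap. The difference was -0.22 ± 0.11 (limma adjusted p = 0.492), but the other 2 probe sets of Syt2 gave 0.04 and 0.05. Syt1 was 13.94 ± 0.17 in null P49 and 13.75 ± 0.34 in wild-type P49 arrays, a difference of 0.19 smaller than the SD of the wild-type group. Syt11, a synaptotagmin that does not bind calcium, was 15.04, 15.17 and 15.17 in null P49 arrays and 14.98, 15.02 and 14.71 in wild-type P49 arrays. All 3 null arrays were above all 3 wild-type arrays, by 0.22 ± 0.11 (adjusted p = 0.454), with 0.09 and 0.49 on its other probe sets. Syt4, another synaptotagmin of vesicles and dense-core granules, had -0.08. Of the complexins, which clamp and prime the SNARE complex, Cplx1 was -0.05 and Cplx2 -0.16.

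The genes grouped as vesicle-associated proteins are Syn1, Syn2, Sv2a, Syp and Syngr1, and are called the vesicle membrane genes here. The Vamp and synaptotagmin genes are counted under other roles. Differences of the vesicle membrane genes at P49 were negative in 5 of 5 cases, from -0.24 to -0.02, and none passed. Syn2, a synapsin that tethers vesicles in the reserve pool, was 14.06, 14.13 and 14.13 in null P49 arrays and 14.45, 14.24 and 14.33 in wild-type P49 arrays. These groups did not overlap, with a difference of -0.24 ± 0.15 (limma adjusted p = 0.675), and its other probe set gave -0.13. Syp, which encodes synaptophysin, was 15.58, 15.67 and 15.65 in null P49 arrays and 15.73, 15.72 and 15.72 in wild-type P49 arrays, a gap of only -0.09 in means that overlap in no array. Syn1, Sv2a, which encodes a vesicle glycoprotein, and Syngr1, a synaptogyrin, differed by -0.02, -0.09 and -0.08. A dimmer probe set of Syngr1 went the other way, with 13.34, 13.23 and 13.10 in null P49 arrays and 12.50, 12.89 and 11.96 in wild-type P49 arrays. That difference of 0.77 ± 0.27 did not pass when every probe set was tested (limma adjusted p = 0.245), and another probe set below the filter gave 0.17.

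No gene of the Rab3 group or of endocytosis passed at P49. Rab3a differed by -0.14 at P49 and Rab3c by -0.07, while Rab3b, at 9.97, 9.58 and 9.94 in null P49 and 10.40, 9.95 and 10.62 in wild-type P49 arrays, overlapped between groups and lay near the filter. The other probe sets of Rab3c gave 0.23 and, below the filter, 0.19. Rph3a, which encodes the Rab3 effector rabphilin, had 0.11. Of the 7 endocytic genes Cltb, a clathrin light chain gene, had the highest difference, with levels of 14.64, 14.65 and 14.66 in null P49 arrays and 14.51, 14.55 and 14.39 in wild-type P49 arrays. The null arrays were nearly identical and above every wild-type array, yet the difference was 0.17 ± 0.10 (limma adjusted p = 0.639) and the other probe set gave 0.07. The genes for dynamin 1 (Dnm1), endophilin A1 (Sh3gl2), AP180 (Snap91), syndapin 1 (Pacsin1), amphiphysin (Amph) and Bin1 lay between -0.14 and 0.02 by their brightest probe sets. Further probe sets of Dnm1, Sh3gl2 and Pacsin1 past the filter gave -0.20 to -0.05. The lowest was of Sh3gl2, with no overlap between the P49 groups, and did not pass (limma adjusted p = 0.540). Sncb, the beta-synuclein gene, was 13.78 ± 0.14 in null P49 and 14.03 ± 0.11 in wild-type P49 arrays (SD, n = 3 each), a difference of -0.25 ± 0.20 (adjusted p = 0.775).

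In all, 10 of 30 members had groups that do not overlap at P49, beside 23.2% of all genes tested. Of these, 3 were higher in null (Cltb, Stx1a and Syt11), beside 11.2% of all genes, and 7 were lower (Rab3a, Snap25, Sncb, Syn2, Syp, Syt2 and Vamp2), beside 12% of all genes. The spread among P49 arrays was small, with a median member SD of 0.08 in null and 0.08 in wild type against 0.13 over all genes in both groups.

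At P21 no member passed either, and 0 of 30 had groups that do not overlap, beside 11.8% of all genes tested. In limma 0 of 30 members were called, beside 0.0638% of all genes, and 2 had an unadjusted p under 0.05 (6.67%), beside 10.1% of all genes. Of the 24 further probe sets tested, 4 had groups that do not overlap at P21, those of Cplx1, Pacsin1 and Syt2 higher in null and that of Nsf lower, and none was called. Differences ran from -0.37 to 0.40 with a median of 0.04, and 20 of 30 intervals lay within 0.5 on the log2 scale. Cplx2, the second complexin, was 15.26, 15.70 and 15.85 in null P21 arrays and 16.25, 15.99 and 15.68 in wild-type P21 arrays. The groups overlapped, and the difference was -0.37 ± 0.16 (adjusted p = 0.484). Dnm1 was 16.62, 16.95 and 16.90 in null P21 arrays and 16.70, 16.68 and 16.34 in wild-type P21 arrays, also overlapping, with 0.25 ± 0.11 (adjusted p = 0.486). Vamp1 was 14.06, 13.93 and 14.24 in null P21 arrays and 14.26, 14.20 and 14.48 in wild-type P21 arrays, overlapping as well, with -0.24 ± 0.12 (adjusted p = 0.514). Without the 3 arrays of doubtful sex label, which leaves 1 null array at P21, 20 of the 30 differences were negative in place of 10, the median was -0.11, and no member was called.

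By role, the vesicle membrane genes were positive in 4 of 5 cases at P21 (median 0.12), the endocytic genes in 5 of 7 (median 0.04) and the SNARE genes in 1 of 4 (median -0.10). Single arrays carry the sign of the vesicle membrane genes. The endocytic median stayed positive (lowest 0.0015) and the SNARE median negative (highest -0.088) when any single P21 array was left out. Without null P21 replicate 2 the vesicle membrane genes were positive in 2 of 5 cases (median -0.016) and 16 of all 30 members were negative, and without wild-type P21 replicate 3 they were positive in 3 of 5 (median 0.0089) and 15 of 30 were negative, in place of 10. Rph3a had the largest difference, 0.40 ± 0.31, with 11.52, 12.45 and 12.80 in null P21 arrays and 12.37, 12.10 and 11.11 in wild-type P21 arrays. Its groups overlapped widely, and null replicate 1 and wild-type replicate 3 were low.

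Several vesicle genes were widely spread among P21 animals. Syp was 15.25, 16.14 and 15.77 in null P21 arrays and 15.66, 15.68 and 15.24 in wild-type P21 arrays. Syn1 was 14.61, 15.42 and 14.78 in null P21 arrays and 14.82, 14.66 and 14.58 in wild-type P21 arrays. Null replicate 2 was high and null replicate 1 low for both genes, as for Sncb, at 13.30, 14.26 and 13.93 in null P21 arrays and 13.99, 13.75 and 13.41 in wild-type P21 arrays. Of the 30 members 19 had their lowest null P21 value on replicate 1 and 14 their highest on replicate 2, while of all genes tested 31.0% and 40.4% did. In wild-type P21 arrays replicate 3 was lowest for 18 of 30 members and for 36.3% of all genes. The same array had the highest summed level of deep nuclear and brainstem neuron markers, 17.08 against 16.53 and 16.54 on the other wild-type P21 arrays, and of oligodendrocyte markers, 19.24 against 18.97 and 19.01. It also had the lowest sums of Purkinje cell markers, 19.15 against 19.34 and 19.40, and of cerebellar interneuron markers, 17.54 against 17.74 and 17.79. Among null P21 arrays replicate 1 had the highest blood cell sum, 13.85 against 11.83 and 11.40, and replicate 2 the lowest oligodendrocyte sum, 18.57 against 18.93 and 18.73. Bin1, an amphiphysin relative that oligodendrocytes also express, was 14.08 on wild-type P21 replicate 3, against 13.63 and 13.73 on the other wild-type P21 arrays. The part of these cells in the member values was not tested. The median member SD was 0.21 in null P21 and 0.14 in wild-type P21 arrays, against 0.24 and 0.14 over all genes.

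**Figure D2:**
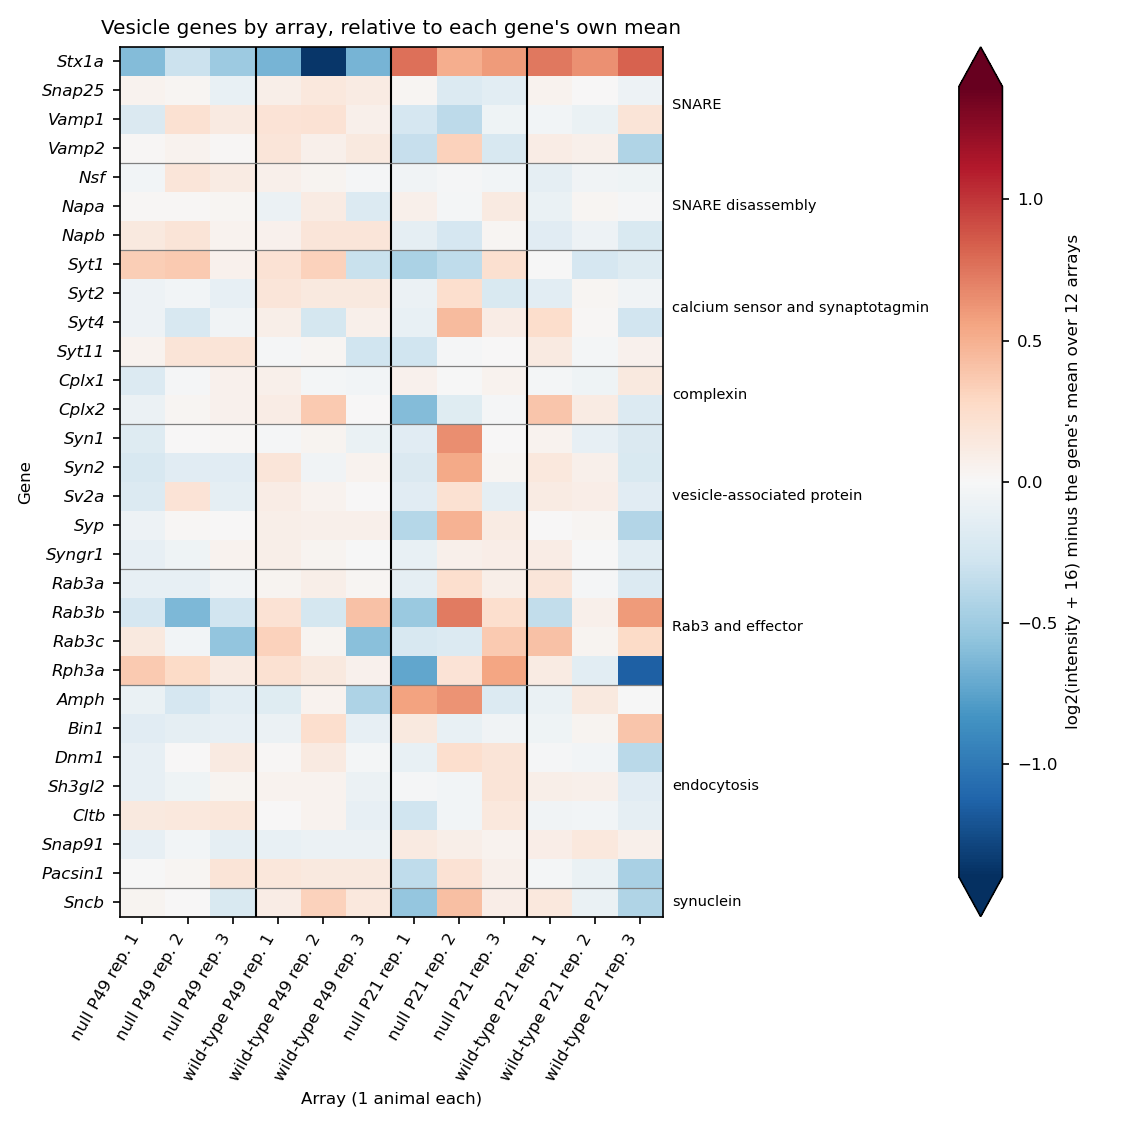
Each cell is the log2(intensity + 16) of 1 member (row, ordered by role) on 1 array (column, 3 a group) minus that gene's mean over 12 arrays. Stx1a is blue in all 6 P49 arrays and red in all 6 P21 arrays; null P21 replicate 2 is red for Syn1, Syn2 and Syp, and null P21 replicate 1 and wild-type P21 replicate 3 are blue for Syp, Sncb and Rph3a.

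No member was called for a genotype difference that changed with age. In limma 0 of 30 members were called in the interaction, beside 0.549% of all genes, and 1 had an unadjusted p under 0.05 (3.33%), beside 8.44% of all genes. That member was Syt11, whose genotype difference was 0.22 at P49 and -0.15 at P21, an interaction of 0.37 ± 0.15 (adjusted p = 0.524). Stx1a gave 0.53 ± 0.28 (adjusted p = 0.666) and Dnm1 -0.28 ± 0.16 (adjusted p = 0.707). At P49 Dnm1 was 16.605, 16.721 and 16.851 in null and 16.733, 16.844 and 16.694 in wild-type arrays. Only 11 of 30 intervals lay within 0.5 on the log2 scale, so a change of moderate size could go undetected with 3 arrays a group.

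With age, 1 vesicle gene stood out in both genotypes. Stx1a, the plasma membrane syntaxin of neuronal SNARE complexes, was 10.28, 10.58 and 10.38 in null P49 arrays, against 11.65, 11.39 and 11.47 in null P21 arrays. In wild-type animals it was 10.23, 9.52 and 10.23 at P49, against 11.62, 11.52 and 11.71 at P21. Every P49 array lay below every P21 array in both genotypes. Stx1a, whose upstream sequence is given above, fell by 1.09 ± 0.20 on the log2 scale in null (2.13-fold lower, limma adjusted p = 0.00567) and by 1.62 ± 0.20 in wild type (3.08-fold lower, adjusted p = 0.00241). Without the arrays of doubtful sex label the fall was 1.25 in null, where only replicate 1 is left at P21 and its spread is assumed to be that of the other groups (adjusted p = 0.0275). In wild type it was 1.68 with 2 arrays left at P21 (adjusted p = 0.00465). The interaction above does not show that the falls differ between genotypes.

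The second, dimmer Stx1a probe set (mean 9.80, below the filter) had the same sign as the first. It was 9.52, 9.55 and 9.32 in null P49 and 10.15, 10.19 and 10.29 in null P21 arrays, and 8.96, 9.25 and 9.53 in wild-type P49 and 10.27, 10.22 and 10.37 in wild-type P21 arrays. Its groups did not overlap either, with differences of -0.75 ± 0.25 in null and -1.04 ± 0.25 in wild type, but neither passed when all probe sets were tested without a filter (limma adjusted p = 0.151 and 0.146). The brighter probe set has the suffix that Affymetrix gives to probes that may match other transcripts, and its wild-type P49 mean of 9.99 is near the filter, so the size of the fall is uncertain.

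**Figure D3:**
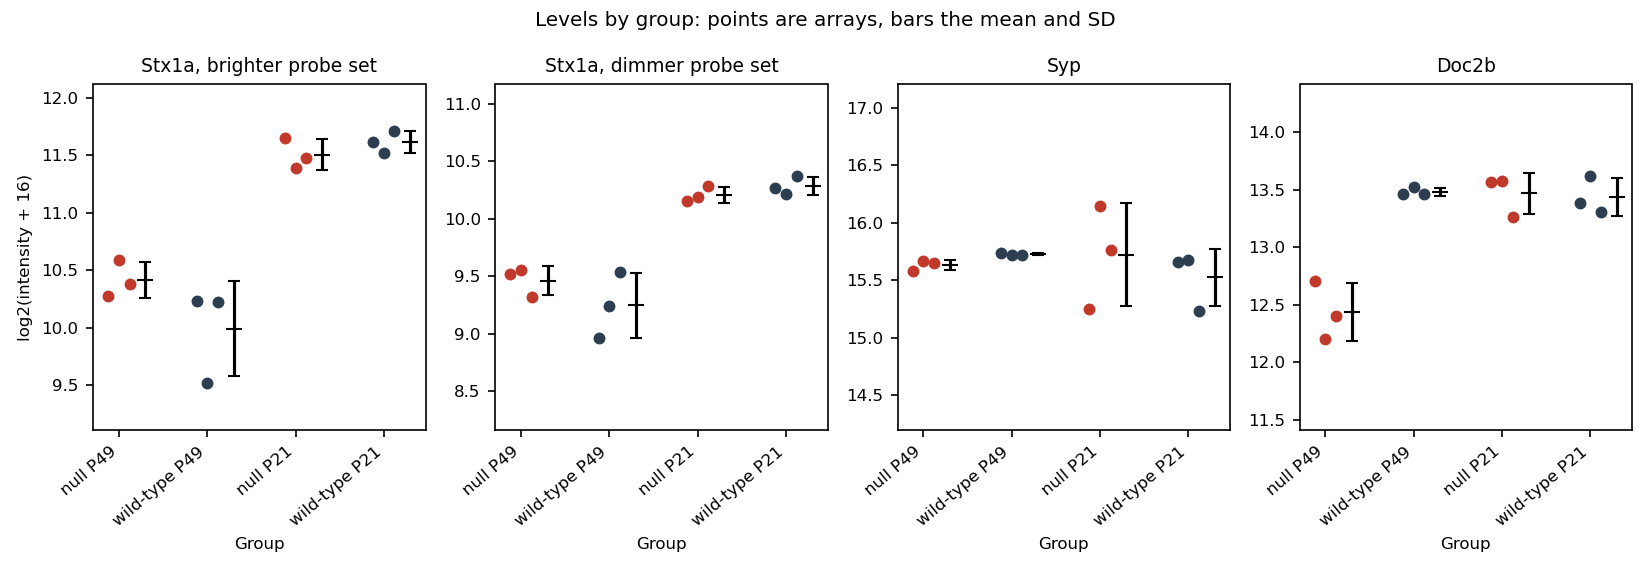
log2(intensity + 16) of both Stx1a probe sets, of the vesicle membrane gene Syp and of Doc2b by group. Points are single arrays, bars the mean and SD of 3, and each vertical axis spans 3 log2 units: both Stx1a probe sets are lower at P49 than at P21 in each genotype, Syp is most spread in null P21, and Doc2b is low in null P49 alone.

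No other member passed with age by its probe set of highest mean. In limma 1 of 30 was called in null, beside 6.23% of all genes (3.45% lower), and 1 of 30 in wild type, beside 0.702% (0.536% lower). Unadjusted p-values under 0.05 were found for 7 of 30 members in null (23.3%), beside 20.9% of all genes, and for 4 of 30 in wild type (13.3%), beside 9.99%. Napb was 14.81, 14.86 and 14.72 in null P49 and 14.55, 14.45 and 14.71 in null P21 arrays, and 14.73, 14.85 and 14.85 in wild-type P49 and 14.52, 14.60 and 14.47 in wild-type P21 arrays. It was higher at P49 with no overlap in either genotype, by 0.23 ± 0.09 in null (adjusted p = 0.167) and 0.28 ± 0.09 in wild type (adjusted p = 0.259). Its 4 further probe sets were positive as well, from 0.35 to 0.52 in null and from 0.15 to 0.35 in wild type. Snap91, which assembles clathrin on vesicle membrane, was 15.43, 15.50 and 15.42 in null P49 and 15.67, 15.63 and 15.59 in null P21 arrays, and 15.44, 15.46 and 15.46 in wild-type P49 and 15.64, 15.69 and 15.61 in wild-type P21 arrays. It was lower at P49 with no overlap, by differences of -0.18 ± 0.07 in null (adjusted p = 0.155) and -0.19 ± 0.07 in wild type (adjusted p = 0.317). Groups did not overlap for 5 of 30 members in null, beside 22.5% of all genes, and for 8 of 30 in wild type, beside 21.4%. Pacsin1, which bends membrane in endocytosis, was 14.99, 14.95 and 14.96 in wild-type P49 and 14.80, 14.73 and 14.37 in wild-type P21 arrays. Its groups did not overlap, with 0.34 ± 0.14 (adjusted p = 0.414), and in null the difference was 0.10. The 5 vesicle membrane genes had a median age difference of -0.09 in null, with 5 of 5 negative, and of 0.05 in wild type, with 5 of 5 positive, and none passed in either genotype or in the interaction. The sign in null rests on null P21 replicate 2: without it 2 of 5 were negative (median 0.03), and 14 of all 30 members were negative with a median of 0.04, in place of 19 with a median of -0.06. The sign in wild type rests on wild-type P21 replicate 3, without which 2 of 5 were positive (median -0.013).

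**Figure D4:**
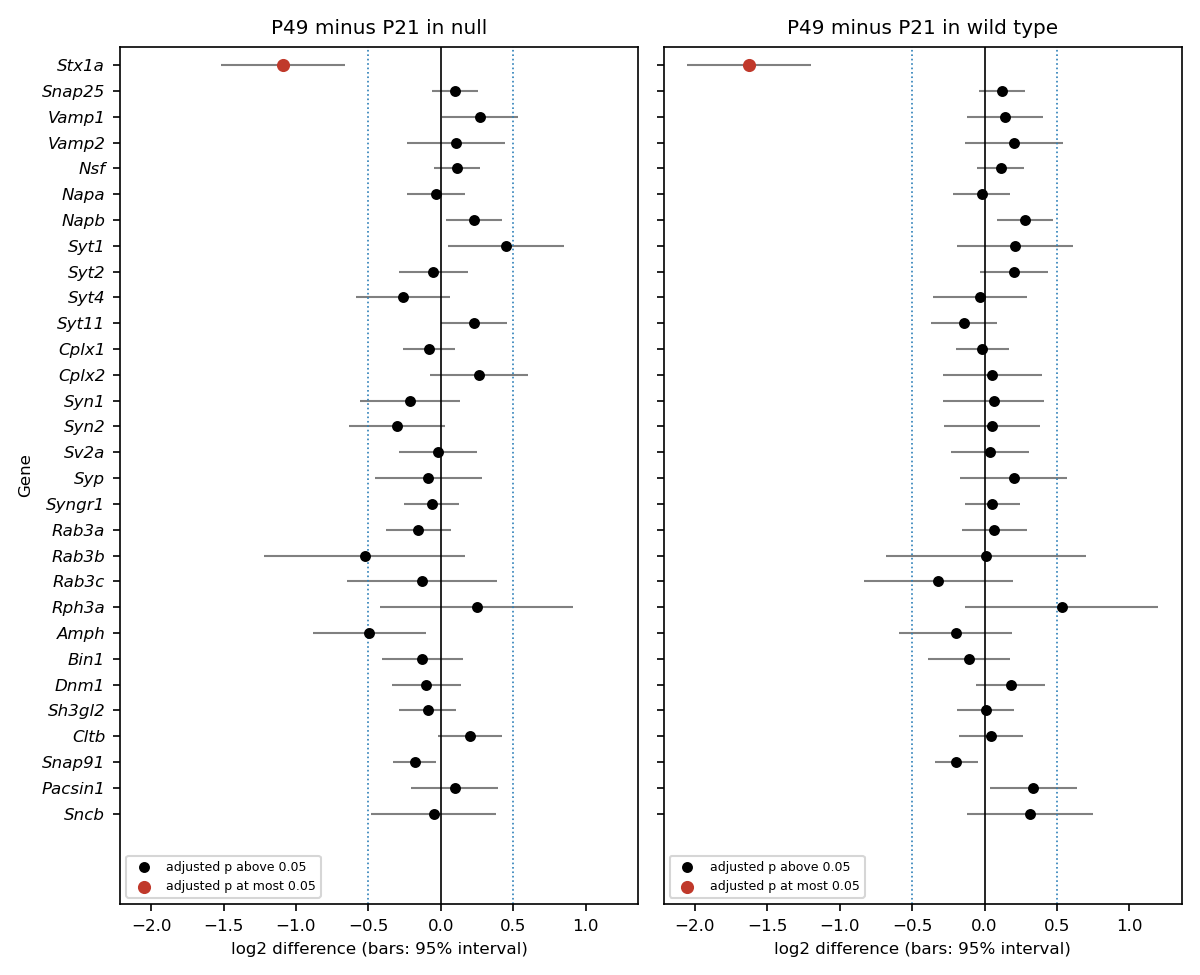
log2 difference, P49 minus P21, for the 30 members (rows) in null (left) and wild type (right), from limma with n = 3 arrays a group. Bars are 95% intervals and red marks an adjusted p at or below 0.05; Stx1a is the only red point in each panel, at -1.09 and -1.62.

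Amph and Syt1 had the largest age differences in null after Stx1a and Rab3b, and neither passed. Amph was 14.20, 14.06 and 14.14 in null P49 and 14.86, 14.92 and 14.10 in null P21 arrays, so null P21 replicate 3 lay among the P49 values, and the difference was -0.49 ± 0.18 (limma adjusted p = 0.134). Syt1 was 14.03, 14.05 and 13.74 in null P49 and 13.24, 13.33 and 13.91 in null P21 arrays, with 0.45 ± 0.19 (adjusted p = 0.186). The same array, one of those of doubtful sex label, stood apart from the other null P21 arrays for both genes, and without it Amph, Syt1 and Stx1a were called. Without all 3 arrays of doubtful sex label Amph, Cltb and Stx1a were called in null, and the median age difference of the 30 members was 0.11 in place of -0.06. Those values set the P49 arrays against null P21 replicate 1 alone, the array that was lowest of its group for 19 of 30 members. The share of all genes called in these fits is not given here, so the calls do not single out the members. One dimmer probe set of Cplx1 was called in null when every probe set was tested. It was 15.33, 15.54 and 15.51 in null P49 and 15.79, 15.83 and 15.75 in null P21 arrays, a difference of -0.33 ± 0.08 (adjusted p = 0.0313), whereas the brightest Cplx1 probe set gave -0.08 and the third 0.22. The share of all probe sets called in that fit is not given here.

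Markers of several cell types moved with age on these arrays. The summed oligodendrocyte list was 18.55 to 18.57 in null P49 and 18.57 to 18.93 in null P21 arrays, and 18.58 to 18.67 in wild-type P49 and 18.97 to 19.24 in wild-type P21 arrays. Of its 8 tested genes 3 were called lower in null and 5 in wild type, beside 3.45% and 0.536% of all genes. In null arrays 10 of 10 tested microglial markers were also called higher with age (median 2.11). There 11 of 11 Purkinje cell markers were called lower (median -0.75) and 3 of 9 astrocyte markers higher. None of these 3 lists had a called gene with age in wild type. Over all genes tested 6.23% were called with age in null and 0.702% in wild type. The summed list of 2 blood cell genes, of which the 1 tested fell in null and was not called in wild type, was 8.87 to 9.67 in null P49 and 11.40 to 13.85 in null P21 arrays, and 8.91 to 10.04 in wild-type P49 and 9.99 to 11.55 in wild-type P21 arrays. The summed choroid plexus list ranged from 12.56 to 17.69 over all arrays. The part of these cells in the age differences of the members was not tested.

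Outside the member list, 74 other genes of the vesicle cycle were examined, of which 56 had a probe set and 48 were tested. At P49 only Doc2b of these 48 was called between genotypes, beside 2.65% of all genes tested. Doc2b encodes a calcium-binding C2-domain protein of vesicle priming and release, and was 12.71, 12.20 and 12.40 in null P49 arrays and 13.46, 13.52 and 13.46 in wild-type P49 arrays. It was 13.57, 13.57 and 13.26 in null P21 and 13.38, 13.62 and 13.30 in wild-type P21 arrays, so only the null P49 arrays were low. Doc2b fell by 1.04 ± 0.14 on the log2 scale in null at P49 (limma adjusted p = 0.000587). At P21 the difference was 0.03 ± 0.14 (adjusted p = 0.939), and the interaction was -1.08 ± 0.20 (adjusted p = 0.0234). The call of the interaction was lost in 9 of 24 alternatives, 7 of which left out a single array, with adjusted p from 0.00823 to 0.222 over all of them. Its second probe set gave -1.24 ± 0.23 at P49 (adjusted p = 0.0112 over all probe sets with no filter) and an interaction of -1.22 ± 0.32 that did not pass (adjusted p = 0.222). The Purkinje cell markers were low on the same 3 arrays, by a median of -1.05, and their part in the fall of Doc2b was not tested.

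With age in null, 5 of these 48 genes were called lower and 1 higher, beside 6.23% of all genes called (3.45% lower). In wild type 1 was called lower, beside 0.702% of all genes called (0.536% lower). In null the active zone scaffold gene Erc1 fell by 0.78 ± 0.11, the endophilin gene Sh3gl3 by 0.80 ± 0.12, and the synaptotagmin genes Syt9 and Syt12 by 0.62 ± 0.11 and 0.86 ± 0.20. Doc2b fell by 1.03 ± 0.14 and the endocytic adaptor gene Eps15 rose by 0.53 ± 0.11. The adjusted p-values of these 6 in limma ran from 0.000880 for Doc2b to 0.0211 for Syt12. Sh3gl3 was the gene called in wild type as well, at -0.76 ± 0.12 (adjusted p = 0.0106), with 11.55, 11.67 and 11.79 in null P49, 12.54, 12.49 and 12.39 in null P21, 11.86, 12.03 and 12.15 in wild-type P49 and 12.67, 12.81 and 12.85 in wild-type P21 arrays. Every P49 array was below every P21 array of its genotype. The median age difference of the 48 genes was -0.10 in null and -0.08 in wild type, against -0.06 and 0.05 for the 30 members and -0.007 and -0.003 for all genes tested.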

How the data were processed

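Per the labels, biotin-labelled total RNA from single animals was hybridised to Affymetrix arrays. The authors deposited 1 linear intensity for each of 22690 probe sets (64 controls), and the summarisation algorithm is not given in the sources used here. No detection calls were used, so which dim values lie above background is not known. The deposited intensities had a trimmed mean near 5002 on every array, and log2 medians from 10.65 to 10.92. Here log2(value + 16) was quantile normalized, and differences on this scale understate those of dim genes. Probe sets with 1 symbol (20380; 691 had several and 1555 none) were renamed by Entrez identifier through the RefSeq table of GRCm38.p6, which matched 20351. Genes were kept from the 40th percentile of probe set means (959 in intensity). Contrasts of the 4 group means over 12 arrays were tested with limma 3.58.1 (R 4.3.3, eBayes with trend), two-sided, with Benjamini-Hochberg adjustment over 7835 genes and a threshold of 0.05. Further probe sets were tested in a fit of 13576 probe sets past the filter, and those below it in a fit of all 22626. Errors are limma's standard errors unless called SD. The number of arrays limits the precision. Summed lists are log2 of summed intensities over genes with a probe set. Array values were given for members called in any contrast or, where none was called, for the 3 with the smallest p; the other members shown by array were chosen after their values were seen, as examples of their role. The members and lists were chosen with earlier results of these data known. Scripts were tested on simulated data. Where a fit leaves a group with 1 array, its spread is borrowed from the remaining groups. Alternatives covered scaling, pseudocount, filter, probe set rule, spread, arrays and replicate number.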

Additional observations from a re-analysis of the deposited data

Results flagged for a closer look

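Doc2b was the only vesicle-cycle gene, of the 30 members and 48 other genes tested, whose difference between genotypes was called as different at the 2 ages. Of all genes tested 0.549% were called in this way. The interaction was -1.08 ± 0.20 (limma adjusted p = 0.0234), with a genotype difference of -1.04 at P49 and 0.03 at P21. All 3 null P49 arrays were below all 3 wild-type P49 arrays. The call of the interaction was lost in 9 of 24 alternatives, among them its second probe set (adjusted p = 0.222), and the adjusted p ran from 0.00823 to 0.222 over the alternatives.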

How the results depend on the processing

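Among the members, the counts called were 0 for genotype at P21, genotype at P49 and the interaction under every alternative run, and 1 for each age comparison with exceptions. With the filter at the 60th percentile, under which Stx1a was not tested, the count was 0 for both age comparisons. For age in null it was 2 with the average of probe sets (Napb and Stx1a), 3 without the arrays of doubtful sex label (Amph, Cltb and Stx1a), and 1 to 3 when single arrays were left out. It was 2 without null P49 replicate 1 (Napb and Stx1a) and 3 without null P21 replicate 3. The shares of all genes called in these fits are not given here. For age in wild type it was 1 in all 12 such fits. Stx1a kept its calls with age in the 23 other alternatives that tested it, with differences of -1.25 to -0.92 in null and -1.74 to -1.33 in wild type, and lost them on its dimmer probe set, which was chosen after seeing the data. The Doc2b interaction lost its call with no mean-variance trend (adjusted p = 0.0502), without null P49 replicate 2 (0.0818) or 3 (0.0902), without wild-type P49 replicates 1 to 3 (0.0735, 0.0898 and 0.0708), and without wild-type P21 replicates 1 (0.0733) and 3 (0.0931), and on its second probe set (0.222), also chosen after seeing the data, on which its difference at P21 was -0.014. Single arrays also decided Syt12 and Eps15 with age in null (0.107 and 0.056 without null P49 replicate 2, and 0.0751 for Syt12 without replicate 3) and Sh3gl3 in wild type (0.0536 to 0.0613 without wild-type P49 replicate 2 or wild-type P21 replicates 2 or 3). Doc2b at P21 changed sign to -0.015 and -0.018 without null P21 replicates 1 and 2 and to -0.031 without wild-type P21 replicate 3, and its age difference in wild type to -0.018 without that array, with ranges of -0.031 to 0.14 and -0.018 to 0.14; neither was called in any of these fits. The labels do not say that replicate numbers pair animals, and deviations of same-numbered arrays correlated from -0.18 to 0.19, so the numbers were not taken as pairs. With the replicate number as a block the counts were 0 for genotype at P21, genotype at P49 and the interaction, and 1 for each age comparison.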
